A study of Homo sapiens with 16 samples.

Results

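The YAP and TEAD genes described here are 8 human genes, YAP1, WWTR1, TEAD1, ANKRD1, AMOTL2, LATS2, AJUBA and AXL, taken by gene symbol from the 26182 gene names with a value above 0 in at least 1 library. ANKRD1 was chosen because its values were higher with 5G6 and 6D7, so its levels are given as a description, with no test. The other 7 were tested in a fit that covered 15285 genes. All 8 passed the filter on low values, which kept genes that reached 1 TPM in 2 or more libraries. TPM is the usual length-corrected share of a library that falls to a gene.

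The libraries came from A549, an established human lung cancer cell line, made to overexpress CD63-Nluc, a fusion of the tetraspanin CD63 with a luciferase reporter. The controls carry the fusion too. Cells were exposed to 1 of the compounds 5G6, 6D7 and 7F8, or to the solvent DMSO, for 4 h or for 48 h. The labels give all treatments, even DMSO, the dose 4 µM. By its title the study concerns how AMPK and SREBPs bear on exosome release. The 8 groups are 5G6, 6D7, 7F8 and DMSO at 4 h and the same treatments at 48 h, each with 2 biological replicates of polyA RNA, 16 libraries in all. The compounds are known here by code name alone, so no structural comparison can be made between them. Whether the cells are 1 clone is not given in the sources used here, and the results hold for a single line.

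YAP, encoded by YAP1, and its paralog TAZ, encoded by WWTR1, are transcriptional coactivators that bind no DNA themselves and reach it through the TEAD factors. The Hippo kinases MST and LATS phosphorylate both coactivators, which keeps them out of the nucleus or marks them for degradation. Cell contact, stiffness of the matrix and tension in the actin skeleton act on the pathway, and most of its control is on the proteins, which RNA levels do not show. In epithelial cancer cells YAP and TAZ are known for driving growth, spread and drug tolerance genes.

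The libraries held 6.10 to 8.86 aligned gigabases. The keratins KRT8, KRT18 and KRT7 ran from 487 to 3130 TPM over all libraries. Of the other epithelial markers KRT19 ran from 11.3 to 329 TPM and CDH1 from 9.13 to 36.7 TPM, while EPCAM was low at 0.254 to 8.33 TPM. AKR1B10, AKR1C1, AKR1C2, AKR1C3 and ALDH1A1, known for high levels in A549, ran from 171 to 6521 TPM. Of 4 fibroblast markers COL1A2 and DCN were listed at 0 in all 16 libraries and the summed level was 2.27 to 14.4 TPM, nearly all of it COL1A1. The summed levels reached 0.475 TPM for 3 endothelial markers and 0.459 TPM for 4 blood markers. The mitochondrial gene TRNC took 15.3 to 28.6 percent of TPM in 14 libraries. In the 6D7 libraries at 48 h its value was 0 and its neighbour TRNY was listed instead, which raises every other TPM of that group. The median log2 fold change over all tested genes was 0.13, 0.04 and -0.10 for 5G6, 6D7 and 7F8 against DMSO at 4 h, and -0.07, 0.29 and -0.21 at 48 h, so each value below is to be read against the median of its comparison. With 6D7 at 48 h that median was -0.06 once TRNC and TRNY were left out of the TPM sum.

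Log2 fold changes are differences of mean log2(TPM + 1), which understate the change of weakly expressed genes. Tests are two-sided limma tests on all 16 libraries, with 8 residual degrees of freedom. Genes are named as called where p after Benjamini-Hochberg (BH) adjustment over all tested genes was under 0.05. Since separate cultures are not documented beyond the words biological replicates, p-values cover only the spread between the libraries at hand. In bulk RNA, fewer expressing cells and less RNA per cell cannot be told apart.

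WWTR1, which encodes TAZ (GRCh38 chr3:149517229-149724788, minus strand), was the 1 of the 7 tested genes that was called against DMSO. In 7F8 cells at 48 h it measured 24.9 and 33.3 TPM, against 55.3 and 87.9 TPM in DMSO cells at 48 h. The groups did not overlap, and both 7F8 libraries held the lowest WWTR1 values of the 48 h set. The means were 29.1 ± 5.97 TPM with 7F8 and 71.6 ± 23.0 TPM with DMSO (SD, n = 2 each). The log2 fold change was -1.25 ± 0.31 (SE; 95% interval -1.93 to -0.57), 2.38-fold lower on the log2(TPM + 1) scale (limma, BH-adjusted p = 0.0319). Of all tested genes 6.40 percent were called lower in that comparison, 2.08 percent higher and 8.49 percent in either direction. The call did not hold when any 1 of the 4 libraries was left out: the log2 fold change then lay between -1.58 and -0.92, with adjusted p from 0.0525 to 0.238. It was also lost with no filter on low values (limma, adjusted p = 0.0664) and with the 48 h libraries fitted alone (limma, adjusted p = 0.119). With median-of-ratios scaling, which sets the median change of all genes near 0, the log2 fold change was -0.998 (limma, adjusted p = 0.0330).

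**Figure D1:**
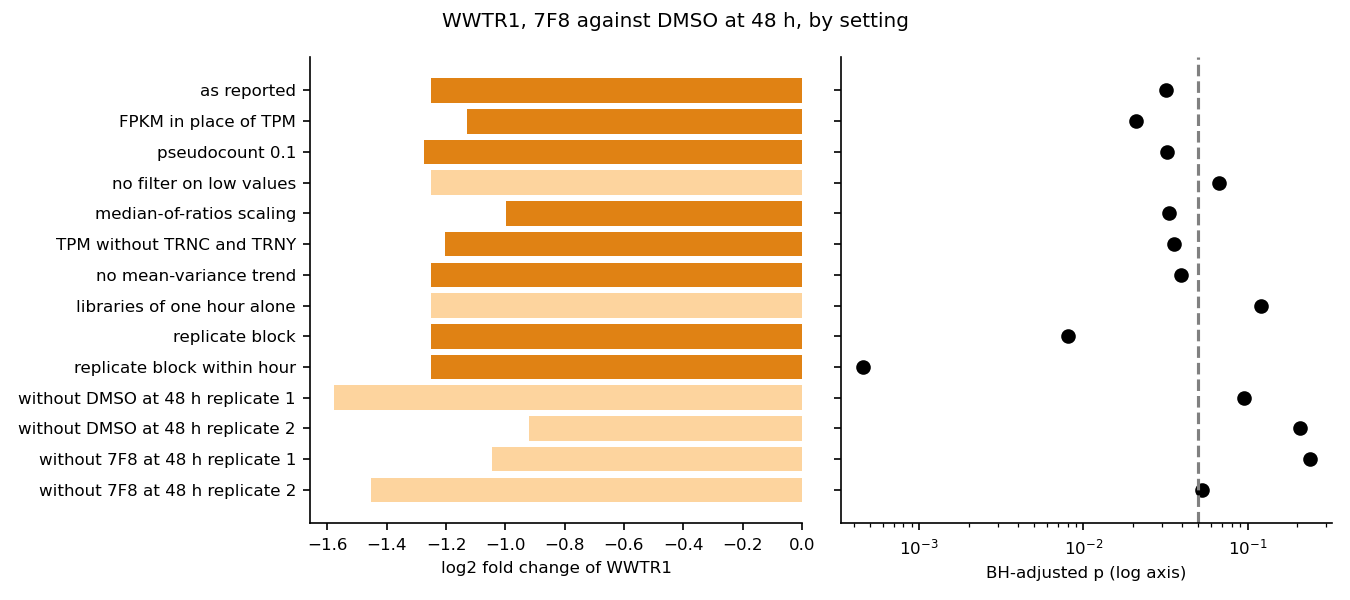
The left panel plots the log2 fold change of WWTR1 for 7F8 against DMSO at 48 h under each setting, with dark bars where it was called and pale bars where it was not, and the right panel plots the BH-adjusted p on a log axis with the threshold of 0.05 dashed. All 14 log2 fold changes lie below 0, from -1.58 to -0.92, while the adjusted p lies on both sides of the threshold.

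At 4 h WWTR1 measured 39.4 and 34.3 TPM in 7F8 cells, against 58.9 and 51.9 TPM in DMSO cells. The groups did not overlap at this hour either, and the log2 fold change of -0.58 ± 0.31 (SE) did not pass the test (limma, adjusted p = 0.998). The difference between the 7F8 effects at 48 h and at 4 h, -0.67 ± 0.44 (SE), did not pass it (limma, adjusted p = 0.790). The median of that difference over all tested genes was -0.11. No lowering particular to the later hour was shown.

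With the other compounds at 48 h, WWTR1 measured 36.1 and 55.3 TPM in 5G6 cells and 34.5 and 64.6 TPM in 6D7 cells, against the DMSO values above. The higher 5G6 library and the lower DMSO library were both at 55.3 TPM to 3 digits, and the 6D7 libraries overlapped DMSO. The log2 fold changes were -0.63 ± 0.31 with 5G6 (SE; limma, adjusted p = 0.316) and -0.55 ± 0.31 with 6D7 (SE; limma, adjusted p = 0.266), neither of which passed. Once TRNC and TRNY were left out of the TPM sum the 6D7 value was -0.96, which did not pass either (limma, adjusted p = 0.0971). At 4 h WWTR1 measured 53.0 and 62.2 TPM in 5G6 cells and 51.4 and 47.2 TPM in 6D7 cells, with log2 fold changes of 0.05 and -0.16. In the order of the 8 group means, DMSO at 48 h was highest and 7F8 at 48 h lowest, and in that order 7F8 at 4 h and 7F8 at 48 h were the one pair of neighbours whose libraries did not overlap. WWTR1-AS1, an antisense transcript over WWTR1 on the other strand, was listed at 0.267 to 1.21 TPM, and the library kit's strand setting is not stated, so its reads cannot be told apart from those of WWTR1.

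YAP1 (chr11:102109957-102233424, plus strand) encodes the other coactivator, and no comparison called it. At 48 h it measured 19.0 and 34.3 TPM in 5G6 cells, 26.4 and 43.1 TPM in 6D7 cells and 22.7 and 30.1 TPM in 7F8 cells, against 24.1 and 41.0 TPM in DMSO cells. Every compound overlapped DMSO, with log2 fold changes of -0.29, 0.10 and -0.26 and an SE of 0.36 each (limma, adjusted p = 0.749, 0.887 and 0.708). The 6D7 value turned to -0.30 without TRNC and TRNY in the TPM sum. The 95% interval for 7F8 ran from -1.05 to 0.54. The WWTR1 estimate of -1.25 lay outside it, but the WWTR1 interval of -1.93 to -0.57 overlapped it. The difference between the 2 genes was not tested. At 4 h YAP1 measured 20.1 and 37.3 TPM in 5G6 cells, 21.8 and 25.3 TPM in 6D7 cells, 22.1 and 21.0 TPM in 7F8 cells and 22.1 and 25.3 TPM in DMSO cells. All neighbours in the order of the 8 YAP1 means overlapped, from 34.8 TPM with 6D7 at 48 h to 21.5 TPM with 7F8 at 4 h.

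TEAD1 (chr11:12674421-12944737, plus strand) encodes a DNA-binding partner of both coactivators. At 48 h it measured 23.4 and 30.5 TPM in 5G6 cells, 28.6 and 37.1 TPM in 6D7 cells and 21.5 and 25.4 TPM in 7F8 cells, against 37.0 and 39.7 TPM in DMSO cells. The 5G6 and 7F8 libraries all lay below both DMSO libraries, and 1 of the 6D7 libraries fell between them. The log2 fold change with 7F8 was -0.69 ± 0.27 (SE; unadjusted p = 0.0239), which did not pass the adjustment (limma, adjusted p = 0.132). With 5G6 it was -0.50 ± 0.27 (SE; limma, adjusted p = 0.349) and with 6D7 -0.23 ± 0.27 (SE; limma, adjusted p = 0.612), or -0.63 without TRNC and TRNY in the sum. At 4 h TEAD1 measured 38.5 and 54.4 TPM in 5G6 cells, 42.0 and 32.0 TPM in 6D7 cells, 26.5 and 28.2 TPM in 7F8 cells and 45.1 and 27.5 TPM in DMSO cells, and every compound overlapped DMSO.

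The other TEAD genes and the cofactor VGLL4, which competes with YAP and TAZ for TEAD, were not called in any comparison with DMSO. TEAD4 ran from 16.4 to 38.2 TPM over all libraries, TEAD2 from 11.4 to 34.0 TPM and TEAD3 from 1.92 to 8.31 TPM. TEAD4 at 48 h had log2 fold changes of -0.49, -0.44 and -0.60 with 5G6, 6D7 and 7F8, and all 6 compound libraries lay below both DMSO libraries (limma, adjusted p = 0.232, 0.176 and 0.0927). Lower without overlap were 27.9, 10.0 and 41.1 percent of all tested genes with 5G6, 6D7 and 7F8. The 6D7 value stands beside a median of 0.29 over all tested genes. VGLL4 had log2 fold changes of 0.37, 0.82 and 0.94 at 48 h, with no call (limma, adjusted p = 0.657, 0.147 and 0.125). In the list of YAP, TAZ, TEAD and VGLL genes 8 of 10 were tested, VGLL1 and VGLL2 being at or near 0. Of the 8, 1 gene, WWTR1, was called lower with 7F8 at 48 h, where 6.40 percent of all tested genes were. The median log2 fold change of these 8 was -0.43 in that comparison, against -0.21 over all tested genes.

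ANKRD1 (chr10:90912100-90921275, minus strand) encodes an ankyrin repeat protein known from heart muscle and is among the most widely used readouts of YAP and TAZ activity. At 4 h it measured 6.02 and 40.0 TPM in 5G6 cells, 8.50 and 24.5 TPM in 6D7 cells and 0.864 and 6.22 TPM in 7F8 cells, against 1.95 and 6.92 TPM in DMSO cells. Replicate 2 was the higher in all 4 groups at this hour. The 6D7 libraries lay above both DMSO libraries, while the lower 5G6 library lay between them, and the 40.0 TPM of 5G6 replicate 2 was the highest ANKRD1 value of the 16. At 48 h ANKRD1 measured 6.71 and 5.14 TPM in 5G6 cells, 20.7 and 5.29 TPM in 6D7 cells and 1.85 and 0.390 TPM in 7F8 cells, against 3.01 and 1.79 TPM in DMSO cells. Replicate 1 was the higher in all 4 groups at this hour. The 5G6 and 6D7 libraries lay above both DMSO libraries, and the 7F8 libraries overlapped them.

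On the log2(TPM + 1) scale the ANKRD1 means differed from DMSO by 1.81 with 5G6, 1.69 with 6D7 and -0.40 with 7F8 at 4 h. At 48 h they differed by 1.04 with 5G6, 1.80 with 6D7 and -0.75 with 7F8. The 6D7 value at 48 h includes the rise in TPM that came with the absence of TRNC. With FPKM in place of TPM the 48 h values were 0.89 with 5G6, 1.28 with 6D7 and -0.51 with 7F8. With median-of-ratios scaling the 6D7 libraries at 48 h stood at 16.6 and 3.84, above the higher DMSO library at 3.12. The SD within groups was 1.09 on the log2(TPM + 1) scale, so the value of 1.04 was smaller than the spread between replicates. Without 5G6 replicate 2 the difference at 4 h was 0.54, and without 6D7 replicate 1 that at 48 h was 0.91. Leaving out 1 library at a time, the 5G6 and 6D7 values stayed above 0, from 0.54 to 3.09 at 4 h for 5G6 and from 0.91 to 2.70 at 48 h for 6D7. The 7F8 value at 4 h ran from -1.38 to 0.58 and so took both signs. The mean read coverage of ANKRD1 was 1.69 to 176 per base, lowest in 7F8 replicate 2 at 48 h and highest in 5G6 replicate 2 at 4 h.

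In the order of group means ANKRD1 stood highest with 5G6 at 4 h at 23.0 TPM, then with 6D7 at 4 h at 16.5 TPM and 6D7 at 48 h at 13.0 TPM, and lowest with 7F8 at 48 h at 1.12 TPM. Each group overlapped its neighbour in that order. Between compounds at 48 h the libraries of 6D7 and of 5G6 lay above both 7F8 libraries, by 2.55 and 1.79 on the log2 scale. The median over all tested genes was 0.50 and 0.13 in these comparisons. The value of 2.55 includes the rise in TPM of the 6D7 libraries. With median-of-ratios scaling the 6D7 libraries stood at 16.6 and 3.84 and the 7F8 libraries at 2.26 and 0.425, still without overlap. The related muscle genes ANKRD2, at 0 to 2.87 TPM, and ANKRD23, at 1.52 to 4.25 TPM, were not called in any comparison with DMSO.

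**Figure D2:**
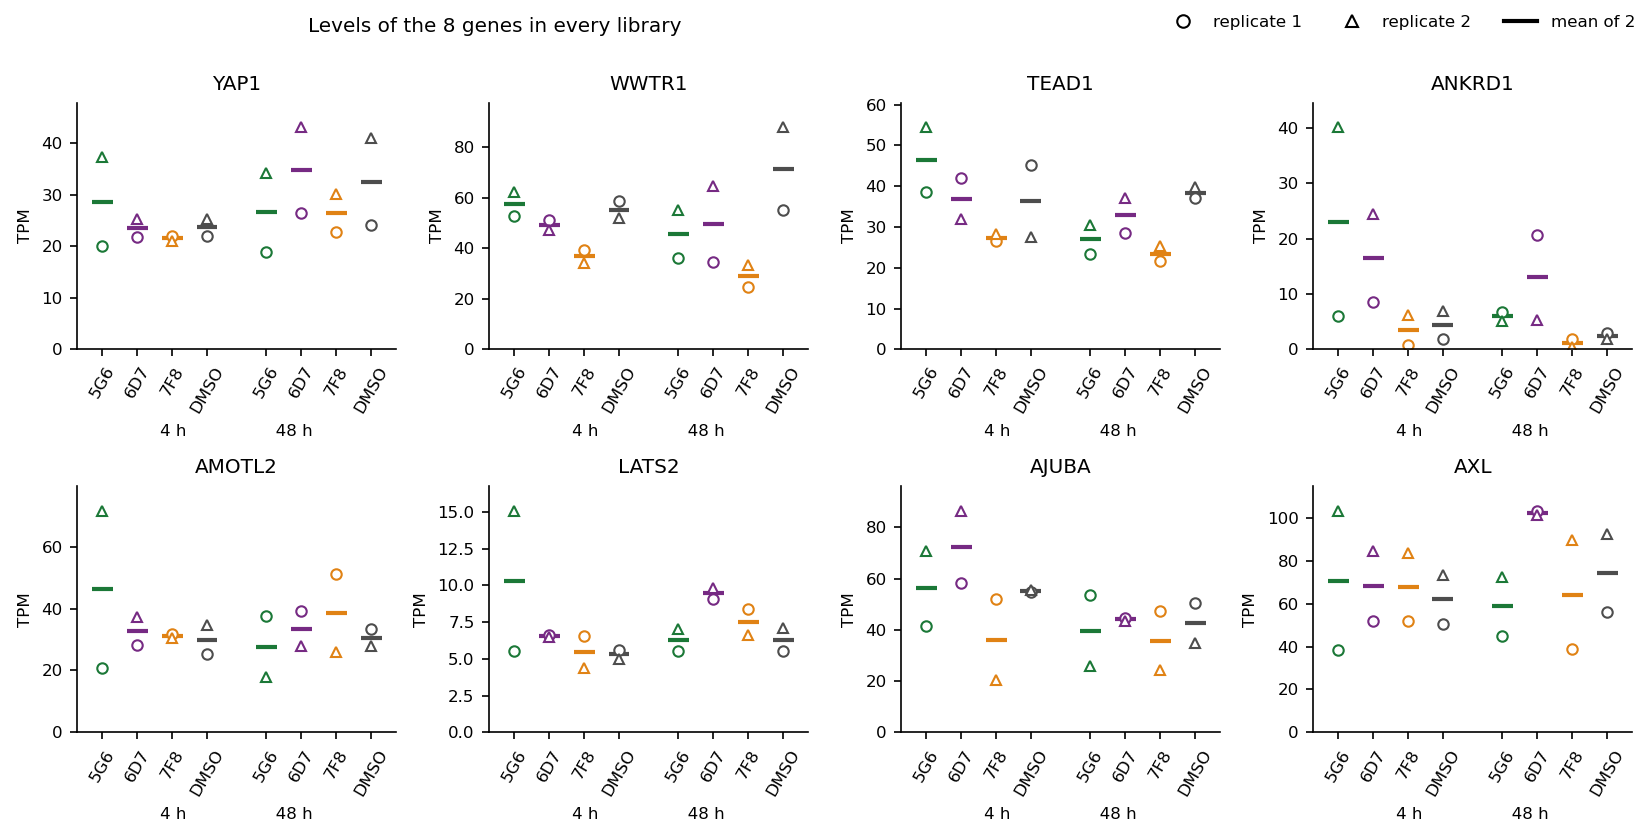
Each panel plots the TPM of 1 gene in the 16 libraries, grouped by treatment at 4 h and 48 h, with circles for replicate 1, triangles for replicate 2 and a bar at the mean of the 2. WWTR1 with 7F8 at 48 h sits at 24.9 and 33.3 TPM, below both DMSO libraries, and ANKRD1 shows gaps within groups of up to 6.02 against 40.0 TPM.

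The promoter of ANKRD1 is shown because its levels drew attention to the set, and that of CCN2, another standard YAP and TAZ target, because CCN2 was not called. The 250 bases before the RefSeq start (GRCh38.p14, minus strand, printed 5′ to 3′) are chr10:90921088-90921337 for ANKRD1 and chr6:131951373-131951622 for CCN2. Capitals mark GGAATG, the core of the TEAD motif, and TGANTCA, an AP-1 motif; both were searched on both strands and none overlapped.
ANKRD1: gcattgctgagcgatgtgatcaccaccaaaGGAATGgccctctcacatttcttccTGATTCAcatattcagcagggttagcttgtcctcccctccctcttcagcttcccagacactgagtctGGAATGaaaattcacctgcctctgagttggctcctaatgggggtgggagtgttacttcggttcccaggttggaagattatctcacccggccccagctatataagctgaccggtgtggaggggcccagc
CCN2: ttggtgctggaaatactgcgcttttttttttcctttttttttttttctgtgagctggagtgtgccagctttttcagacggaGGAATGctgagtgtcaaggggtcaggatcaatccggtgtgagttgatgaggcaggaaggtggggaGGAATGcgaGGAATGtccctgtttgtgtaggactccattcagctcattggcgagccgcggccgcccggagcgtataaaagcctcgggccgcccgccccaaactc

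The ANKRD1 window held GGAATG at 220 to 215 and at 128 to 123 bases before the start and TGANTCA at 195 to 189. The files place the start of the ANKRD1 gene 188 bases further upstream, so the GGAATG nearer to the start falls inside the gene as they annotate it. The CCN2 window held GGAATG 3 times, at 169 to 164, 104 to 99 and 95 to 90 bases before the start. Of 35116 human windows of the same length 11.9 percent held at least 1 GGAATG and 0.940 percent held 2 or more, and 6.57 percent held TGANTCA. Windows were found for 7 of the 8 genes, 11 windows in all. GGAATG also stood in the YAP1 window and in the window of the second start of AMOTL2, AJUBA and AXL, and not in those of WWTR1 or LATS2. For YAP1, AMOTL2, AJUBA and AXL the files place the gene start 490, 970, 5800 and 7556 bases further upstream. These matches too thus fall inside the genes as the files annotate them. Among the target list GGAATG stood in 8 of 18 windows (44.4 percent), from 16 of 22 genes. A match is a run of letters and not a binding site.

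AMOTL2 (chr3:134355345-134375417, minus strand) encodes an angiomotin, a junction protein that holds YAP in the cytoplasm and whose gene is itself a YAP target. At 4 h it measured 20.9 and 71.6 TPM in 5G6 cells, 28.4 and 37.4 TPM in 6D7 cells and 31.9 and 30.4 TPM in 7F8 cells, against 25.2 and 34.5 TPM in DMSO cells. At 48 h it measured 37.4 and 18.0 TPM in 5G6 cells, 39.1 and 28.0 TPM in 6D7 cells and 51.1 and 25.8 TPM in 7F8 cells, against 33.3 and 27.9 TPM in DMSO cells. Every compound overlapped DMSO at both hours, and the log2 fold changes of -0.22 to 0.39 had an SE of 0.50. The value with 6D7 at 48 h was 0.12, and -0.28 without TRNC and TRNY in the TPM sum. MIR6827, a microRNA gene inside AMOTL2 on the same strand, was listed at 0 to 3.07 TPM and may share its reads.

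AXL (chr19:41219199-41261767, plus strand) encodes a receptor tyrosine kinase linked to drug tolerance in lung cancer and is a target of YAP. At 48 h it measured 45.1 and 72.2 TPM in 5G6 cells, 103.4 and 101.1 TPM in 6D7 cells and 38.9 and 89.5 TPM in 7F8 cells, against 56.1 and 92.3 TPM in DMSO cells. Both 6D7 libraries lay above both DMSO libraries, and 6D7 at 48 h stood first in the order of AXL means at 102.3 TPM without overlapping the next group. Its log2 fold change of 0.50 ± 0.50 (SE) did not pass the test (limma, adjusted p = 0.550) and was 0.09 once TRNC and TRNY were left out of the TPM sum. With median-of-ratios scaling the 6D7 libraries at 48 h stood at 82.9 and 73.3 and overlapped DMSO at 58.2 and 82.5. Further down the order, 1 library of 5G6 at 4 h lay above the lower 6D7 library even in TPM. At 4 h AXL measured 38.2 and 103.3 TPM in 5G6 cells, 52.1 and 84.6 TPM in 6D7 cells, 51.8 and 83.7 TPM in 7F8 cells and 50.6 and 73.4 TPM in DMSO cells. Here replicate 2 was the higher in all 4 groups, and the groups overlapped.

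Of the AXL family and its ligands all 5 genes were tested, and GAS6, which encodes the ligand that activates AXL, was the 1 called. The call was with 7F8 at 48 h, where 2.08 percent of all tested genes were called higher and 8.49 percent in either direction. The median log2 fold change of the 5 was -0.28 there, beside -0.21 over all tested genes. At 48 h GAS6 measured 15.9 and 18.6 TPM in 7F8 cells, against 8.69 and 9.04 TPM in DMSO cells, and it rose by 0.88 ± 0.20 on the log2 scale (SE; limma, adjusted p = 0.0217). The call did not hold with any 1 of the 4 libraries left out (adjusted p from 0.0882 to 0.132), while the log2 fold change stayed between 0.78 and 0.99. GAS6 was not called with 5G6 (log2 fold change -0.08; limma, adjusted p = 0.892) or with 6D7 (0.37; limma, adjusted p = 0.248).

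LATS2 (chr13:20973036-21061586, minus strand) encodes a kinase that phosphorylates YAP and TAZ, and its own gene is a YAP target, which closes a negative feedback loop. At 48 h it measured 5.56 and 7.02 TPM in 5G6 cells, 9.08 and 9.85 TPM in 6D7 cells and 8.42 and 6.63 TPM in 7F8 cells, against 5.51 and 7.07 TPM in DMSO cells. The 6D7 libraries lay above both DMSO libraries, with a log2 fold change of 0.53 ± 0.35 that did not pass (SE; limma, adjusted p = 0.347) and that was 0.16 with FPKM in place of TPM. At 4 h LATS2 measured 5.55 and 15.1 TPM in 5G6 cells, 6.63 and 6.48 TPM in 6D7 cells and 6.53 and 4.38 TPM in 7F8 cells, against 5.61 and 5.01 TPM in DMSO cells. The 5G6 value of 15.1 TPM, the highest of the 16, came from replicate 2, while replicate 1 lay between the DMSO libraries.

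AJUBA (chr14:22971174-22982642, minus strand) encodes a LIM protein that binds LATS kinases at cell junctions and restrains them. At 4 h it measured 41.7 and 70.8 TPM in 5G6 cells, 58.3 and 86.5 TPM in 6D7 cells and 52.2 and 20.3 TPM in 7F8 cells, against 54.8 and 55.4 TPM in DMSO cells. The 6D7 libraries lay above both DMSO libraries and the 7F8 libraries below them, and the DMSO libraries were close together. Neither log2 fold change, 0.36 with 6D7 and -0.74 with 7F8 (SE 0.47 each), passed the test (limma, adjusted p = 1 for both). At 48 h AJUBA measured 53.5 and 26.0 TPM in 5G6 cells, 44.6 and 43.5 TPM in 6D7 cells, 47.3 and 24.3 TPM in 7F8 cells and 50.6 and 34.8 TPM in DMSO cells, and the groups overlapped. The log2 fold change with 6D7 was then 0.07, and -0.33 without TRNC and TRNY in the TPM sum.

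Against DMSO at 4 h, 0 of the 7 tested genes were called with any compound (limma), and 0 had an unadjusted p below 0.05. Over all tested genes 0.0196 percent were called with 5G6, all of them higher, and 0 percent with 6D7 and with 7F8, while 3.91, 1.18 and 4.86 percent had an unadjusted p below 0.05. At 48 h 0 of the 7 were called with 5G6 or 6D7 (limma; 0 at an unadjusted p below 0.05). Over all tested genes 3.38 percent were called with 5G6, 1.87 percent higher and 1.51 percent lower, and 12.4 percent with 6D7, 10.9 percent higher and 1.52 percent lower. With 7F8 at 48 h 1 of the 7 was called and 2 had an unadjusted p below 0.05. The share of all tested genes with an unadjusted p below 0.05 at 48 h was 18.1, 29.3 and 24.9 percent with 5G6, 6D7 and 7F8, and the share among the 7 was smaller with 5G6 and 6D7. With 6D7 at 48 h the calls over all genes were 1666 higher and 233 lower, and with median-of-ratios scaling 473 higher and 493 lower. With 7F8 at 48 h they were 318 higher and 979 lower, and 564 higher and 584 lower with that scaling.

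Counting all 8 genes, ANKRD1, LATS2 and AJUBA were higher than DMSO without overlap with 6D7 at 4 h, where 16.1 percent of all tested genes were, and WWTR1 was lower, where 6.50 percent were. With 7F8 at 4 h YAP1, WWTR1 and AJUBA were lower without overlap, where 23.0 percent of all tested genes were and 9.98 percent were higher. YAP1 was so by a margin that rounding hides, at 22.1 TPM in both nearest libraries. With 5G6 at 4 h none of the 8 stood apart (26.9 percent higher, 5.21 percent lower). At 48 h ANKRD1 was higher with 5G6 (19.4 percent) and WWTR1 and TEAD1 lower (27.9 percent). ANKRD1, LATS2 and AXL were higher with 6D7 at 48 h, where 45.2 percent of all tested genes were. WWTR1 and TEAD1 were lower with 7F8 at 48 h, where 41.1 percent were and 15.1 percent were higher. ANKRD1 was picked for its values, so its lack of overlap is a description.

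**Figure D3:**
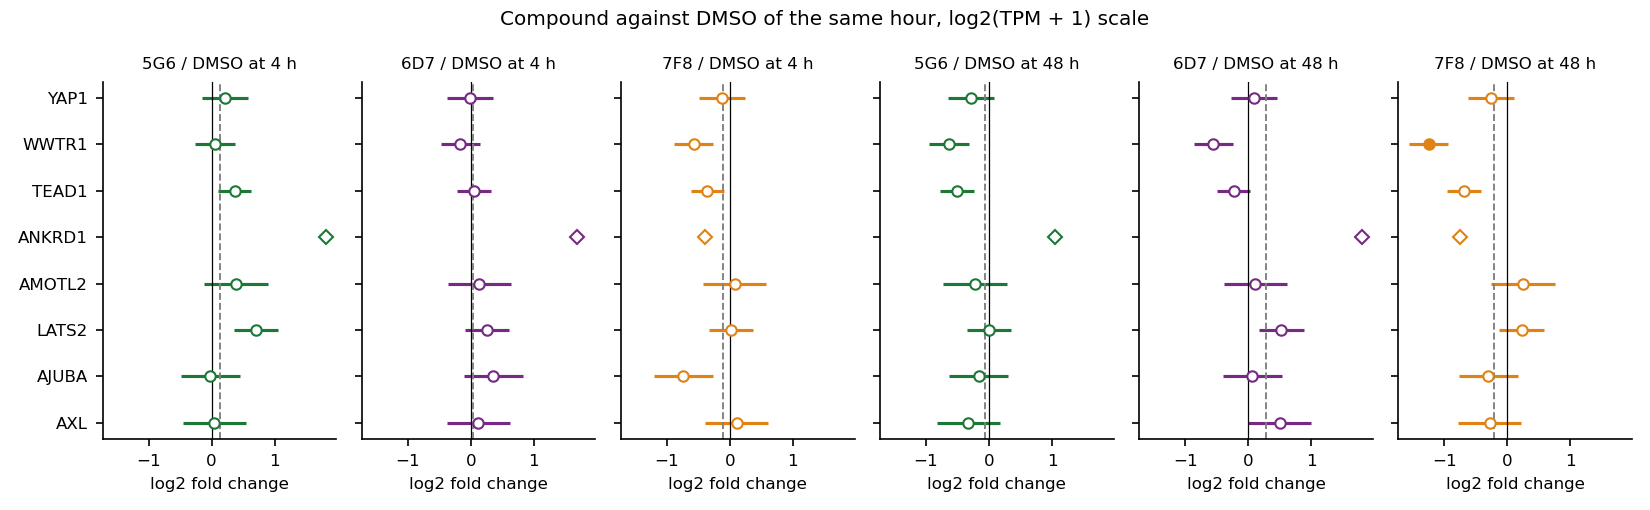
Each panel plots the log2 fold change of the 8 genes for 1 compound against DMSO of the same hour, with bars of 1 SE, and the dashed line marks the median over all tested genes. Circles are tested genes, filled where called, and diamonds are ANKRD1, which was not tested. WWTR1 with 7F8 at 48 h, at -1.25, is the one filled point.

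Between compounds, 3 pairs were compared at each hour at the single labelled dose. At 4 h 0 of the 7 tested genes were called between 5G6 and 6D7, between 5G6 and 7F8 or between 6D7 and 7F8 (limma; 0, 1 and 1 at an unadjusted p below 0.05), where 0, 0.0131 and 0 percent of all tested genes were, and 1.16, 11.7 and 6.12 percent had an unadjusted p below 0.05. At 48 h 0 of the 7 were called in the same pairs (limma; 0, 0 and 1 at an unadjusted p below 0.05), where 0.0196, 0.340 and 16.5 percent of all tested genes were, and 19.3, 9.07 and 37.0 percent had an unadjusted p below 0.05. The 16.5 percent were 2487 higher and 31 lower in 6D7 cells, and 51 higher and 21 lower with median-of-ratios scaling. WWTR1 in 6D7 against 7F8 cells at 48 h had the lowest adjusted p of the 7 in that pair, with a log2 difference of 0.70 ± 0.31 (SE; 95% interval 0.01 to 1.38; limma, adjusted p = 0.129). The median log2 difference over all tested genes in that pair was 0.50, which lies inside the interval. AJUBA in 6D7 against 7F8 cells at 4 h differed by 1.10 ± 0.47 (SE; unadjusted p = 0.0373; limma, adjusted p = 0.774). TEAD1 in 5G6 against 7F8 cells at 4 h differed by 0.72 ± 0.27 (SE; unadjusted p = 0.0190; limma, adjusted p = 0.362). WWTR1 in 5G6 against 7F8 cells at 48 h differed by 0.62, with an interval from -0.07 to 1.30, so neither a difference nor its absence was shown (limma, adjusted p = 0.628).

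Where the effect of a compound was compared between the hours, 48 h minus 4 h, 0 of the 7 genes were called with 5G6, 6D7 or 7F8 (limma; 1, 0 and 0 at an unadjusted p below 0.05), where 0, 0.0393 and 0.00654 percent of all tested genes were, and 7.52, 10.9 and 8.40 percent had an unadjusted p below 0.05. The 1 gene was TEAD1 with 5G6, at -0.87 ± 0.38 (SE; unadjusted p = 0.0395; limma, adjusted p = 0.643). The median over all tested genes was -0.22 there. In DMSO cells at 48 h against 4 h 0 of the 7 were called (limma; 0 at an unadjusted p below 0.05), where 0 percent of all tested genes were and 1.64 percent had an unadjusted p below 0.05, and the largest log2 change was 0.40 ± 0.36 (SE), that of YAP1.

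The Hippo kinase list held the MST, LATS and MAP4K kinases, their scaffolds and the junction proteins that feed them, and 24 of 25 were tested. With 6D7 at 48 h 2 of the 24 rose, SAV1 and MAP4K4, and with 7F8 at 48 h 1 rose, SAV1, where 10.9 and 2.08 percent of all tested genes were called higher. The 2 of 24 with 6D7 are no larger a share than over all tested genes. None fell, and none were called in the other comparisons with DMSO (limma; 0 to 1 at an unadjusted p below 0.05). In those other comparisons 1.18 to 18.1 percent of all tested genes had an unadjusted p below 0.05. SAV1 encodes the scaffold of the MST kinases. At 48 h it measured 22.8 and 26.4 TPM in 5G6 cells, 33.7 and 33.4 TPM in 6D7 cells and 33.4 and 24.1 TPM in 7F8 cells, against 11.7 and 14.2 TPM in DMSO cells. All 6 compound libraries lay above both DMSO libraries, as did 19.4, 45.2 and 15.1 percent of all tested genes with 5G6, 6D7 and 7F8. The log2 fold changes were 1.32 ± 0.26 with 6D7 (SE; limma, adjusted p = 0.0102) and 1.08 ± 0.26 with 7F8 (SE; limma, adjusted p = 0.0267), and 0.88 ± 0.26 with 5G6 did not pass (SE; limma, adjusted p = 0.0916).

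With 1 library left out the adjusted p of SAV1 ran from 0.0216 to 0.108 with 6D7 and from 0.0357 to 0.234 with 7F8, and its log2 fold change stayed above 0.85 in both. MAP4K4, a kinase that acts beside MST, measured 64.1 and 59.3 TPM in 6D7 cells at 48 h, against 34.5 and 40.9 TPM in DMSO cells. It rose by 0.70 ± 0.19 on the log2 scale (SE; limma, adjusted p = 0.0319), and its log2 fold change was 0.37 with median-of-ratios scaling, which was not called (limma, adjusted p = 0.207). In 7F8 cells at 48 h MAP4K4 measured 55.4 and 60.8 TPM, a log2 fold change of 0.61 that did not pass (limma, adjusted p = 0.0641) and that was 0.87 and called with that scaling (limma, adjusted p = 0.0118). The kinases LATS1, STK3 and STK4 and the membrane scaffold NF2 were not called in any comparison with DMSO. With 7F8 at 48 h LATS1 and NF2 had log2 fold changes of -0.62 and -0.59 (limma, adjusted p = 0.204 and 0.120). The median of the list was 0.27 with 6D7 and -0.16 with 7F8 at 48 h, beside 0.29 and -0.21 over all tested genes.

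Of 22 YAP and TAZ target genes 20 were tested beside ANKRD1, RBMS3 being below the filter. CCDC80, an extracellular matrix protein, fell with 5G6 and with 7F8 at 48 h, and F3, the tissue factor that starts blood clotting, rose with 6D7 at 48 h. Each is 1 of 20 genes called, where 1.51 percent of all tested genes were called lower with 5G6, 6.40 percent lower with 7F8 and 10.9 percent higher with 6D7, so the counts with 7F8 and 6D7 are no larger a share than over all tested genes. CCDC80 measured 1.43 and 1.87 TPM in 5G6 cells, 3.79 and 3.54 TPM in 6D7 cells and 2.65 and 2.30 TPM in 7F8 cells, against 15.7 and 7.06 TPM in DMSO cells. All 6 compound libraries lay below both DMSO libraries, as did 27.9, 10.0 and 41.1 percent of all tested genes with 5G6, 6D7 and 7F8. The log2 fold changes were -2.13 ± 0.48 with 5G6 (SE; limma, adjusted p = 0.0362), -1.74 ± 0.48 with 7F8 (SE; limma, adjusted p = 0.0452) and -1.31 ± 0.48 with 6D7, which did not pass (SE; limma, adjusted p = 0.0909). Neither call held when 1 library was left out (adjusted p from 0.0543 to 0.301 with 5G6 and from 0.0607 to 0.263 with 7F8), and that with 7F8 did not hold with median-of-ratios scaling (limma, adjusted p = 0.0898).

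F3 measured 8.75 and 7.55 TPM in 6D7 cells at 48 h, against 3.09 and 2.43 TPM in DMSO cells, and its log2 fold change was 1.28 ± 0.35 (SE; limma, adjusted p = 0.0352). The groups did not overlap, and 45.2 percent of all tested genes were higher without overlap in that comparison. The call was lost with each library left out (adjusted p from 0.0599 to 0.157) and with median-of-ratios scaling, where the log2 fold change was 0.98 (limma, adjusted p = 0.0839). At 4 h 0 of the 20 were called with 5G6, 6D7 or 7F8 (limma; 0, 0 and 1 at an unadjusted p below 0.05). Over all tested genes 3.91, 1.18 and 4.86 percent had an unadjusted p below 0.05 at that hour. At 48 h the median log2 fold change of the 20 was -0.05, 0.32 and 0.07 with 5G6, 6D7 and 7F8, beside -0.07, 0.29 and -0.21 over all tested genes.

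CCN1 and CCN2, the matricellular proteins most often read beside ANKRD1, were not called in any comparison with DMSO. CCN1 measured 25.8 and 140.8 TPM in 5G6 cells and 36.3 and 64.8 TPM in 6D7 cells at 4 h, against 37.8 and 54.8 TPM in DMSO cells. At 48 h CCN1 measured 64.0 and 16.2 TPM in 5G6 cells and 76.2 and 16.7 TPM in 6D7 cells, against 52.7 and 25.6 TPM in DMSO cells. CCN1 thus overlapped DMSO where both ANKRD1 libraries of 5G6 and 6D7 at 48 h did not. CCN2 measured 9.77 and 3.88 TPM in 5G6 cells and 15.5 and 4.15 TPM in 6D7 cells at 48 h, against 8.20 and 5.62 TPM in DMSO cells, and overlapped too.

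Replicate 2 of 5G6 at 4 h, which also held the highest ANKRD1 value, was the highest of the 16 libraries for 8 of the 20 other target genes (40.0 percent), CCN1, CCN2, AMOTL2, LATS2, CRIM1, FJX1, PTPN14 and NUAK2, and for 9.52 percent of all tested genes. Without it the median log2 fold change of the 20 other targets for 5G6 at 4 h was -0.14, and with both libraries it was 0.22. At 48 h replicate 2 was the higher in all 4 groups for YAP1, WWTR1 and TEAD1 and the lower in all 4 for ANKRD1, AMOTL2 and AJUBA. For these genes replicate number thus moved with the levels across treatments at that hour. At 4 h all 4 groups had the same order for ANKRD1 and AXL alone of the 8 genes. The share of all tested genes with such an order was not counted. The labels do not say what the replicate number stands for.

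**Figure D4:**
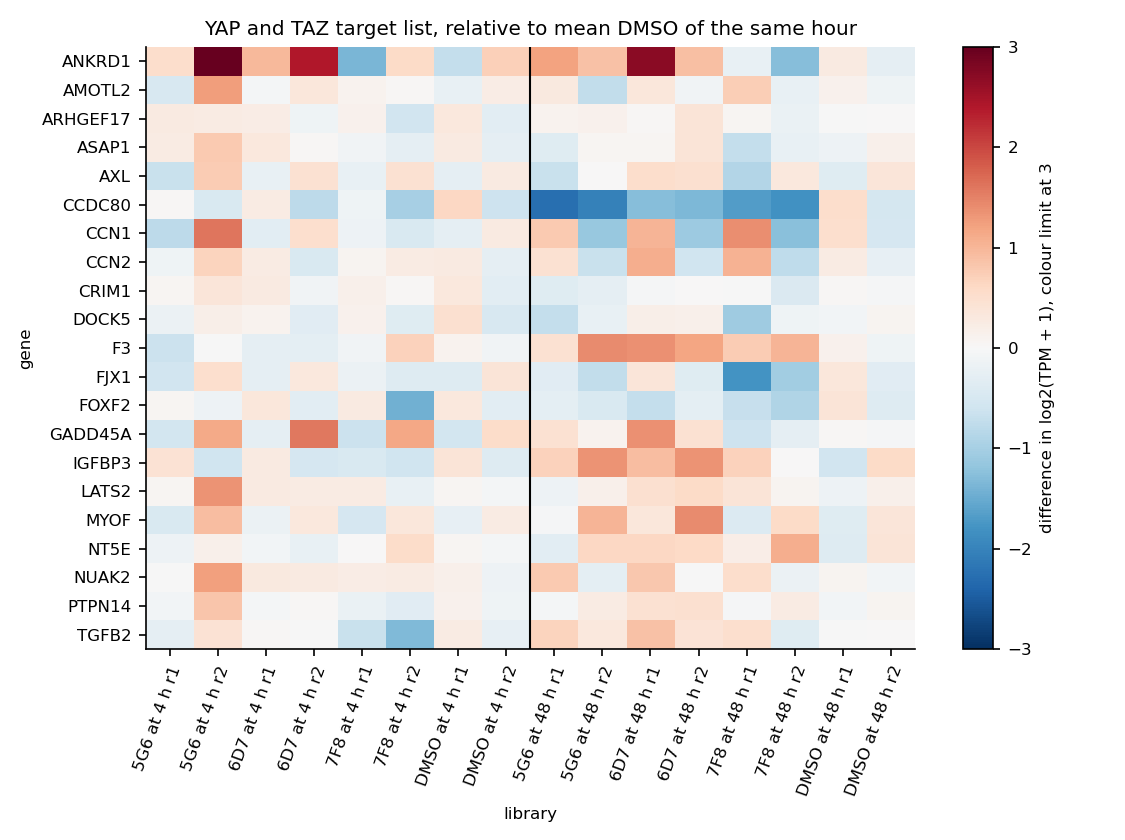
The map plots log2(TPM + 1) of ANKRD1 and 20 other YAP and TAZ target genes in each library minus the mean of DMSO of the same hour, red where higher and blue where lower, with the colour limit at 3. The column of 5G6 at 4 h replicate 2 is red for most rows, and the row of CCDC80 is blue in all 6 compound libraries at 48 h.

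The actin and SRF list holds genes of the actin skeleton and targets of the SRF factor, which responds to free actin through the MRTF coactivators. Of its 15 genes 14 were tested and 0 were called against DMSO with any compound at either hour (limma; 0 to 2 at an unadjusted p below 0.05). In these comparisons 1.18 to 29.3 percent of all tested genes had an unadjusted p below 0.05. Over the 6 lists together 69 genes were tested. With 5G6, 6D7 and 7F8 at 4 h 0 were called each time (limma; 3, 0 and 4 at an unadjusted p below 0.05). Over all tested genes 3.91, 1.18 and 4.86 percent had an unadjusted p below 0.05 at that hour. At 48 h 1, 3 and 4 of the 69 were called, each a smaller share than over all tested genes. With the 48 h libraries fitted alone 0, 1 and 0 were called.

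The genes whose pattern over the 16 libraries was most like that of ANKRD1 were found by Pearson's r of log2(TPM + 1). The search covered 11139 tested genes with a mean of at least 5 TPM in some group, with clone names and LOC numbers left out. Libraries of a group share treatment and hour, and libraries of different groups share replicate numbers, so r is a description. The highest were CGAS, the cytosolic DNA sensor, with r = 0.90, POLR3C, a subunit of RNA polymerase III, with 0.89, SH2D5 with 0.88, BOD1, a chromosome alignment factor, with 0.88 and ZFAND2A, a stress-induced proteasome partner, with 0.88. Spearman's rho of these 5 was 0.83 to 0.89, and r without the 2 libraries farthest from the median of ANKRD1 was 0.80 to 0.90. CGAS measured 7.90 and 17.1 TPM in 5G6 cells and 7.47 and 9.12 TPM in 6D7 cells at 4 h, against 6.05 and 9.65 TPM in DMSO cells. The lowest were BCL3 with -0.81, MIR224 with -0.77 and LFNG with -0.76.

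Among the 20 target genes the median r with ANKRD1 was 0.30, against a median of 0.26 over all 11139 genes. Of the 20, 13 had r above 0, a smaller share than over all genes. Over all genes r was still above 0 at rank 8841 of 11139 (STK38L, 0.0069). Among the 20, GADD45A, a growth arrest and DNA damage gene, was highest with r = 0.83 and NT5E lowest with -0.29. CCN1 had r = 0.54 and CCN2 0.38, and without the 2 farthest libraries, 5G6 replicate 2 at 4 h and 7F8 replicate 2 at 48 h, these were 0.21 and 0.02. AMOTL2 had 0.47, AJUBA 0.47, LATS2 0.41, AXL 0.37 and TEAD1 0.35, and YAP1 and WWTR1 0.09 and 0.13. Without the same libraries AMOTL2 had 0.13, AJUBA 0.23, LATS2 0.07 and TEAD1 -0.04, while AXL had 0.42. Of the Hippo kinase list the tumour suppressor RASSF1 stood at 0.82, and at 0.84 without those libraries. RASSF1 measured 46.5 and 26.9 TPM in 6D7 cells at 48 h, against 14.4 and 12.2 TPM in DMSO cells (log2 fold change 1.36; limma, adjusted p = 0.0511). The median over all tested genes was 0.29 in that comparison, and RASSF1 was picked after its values were seen.

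**Figure D5:**
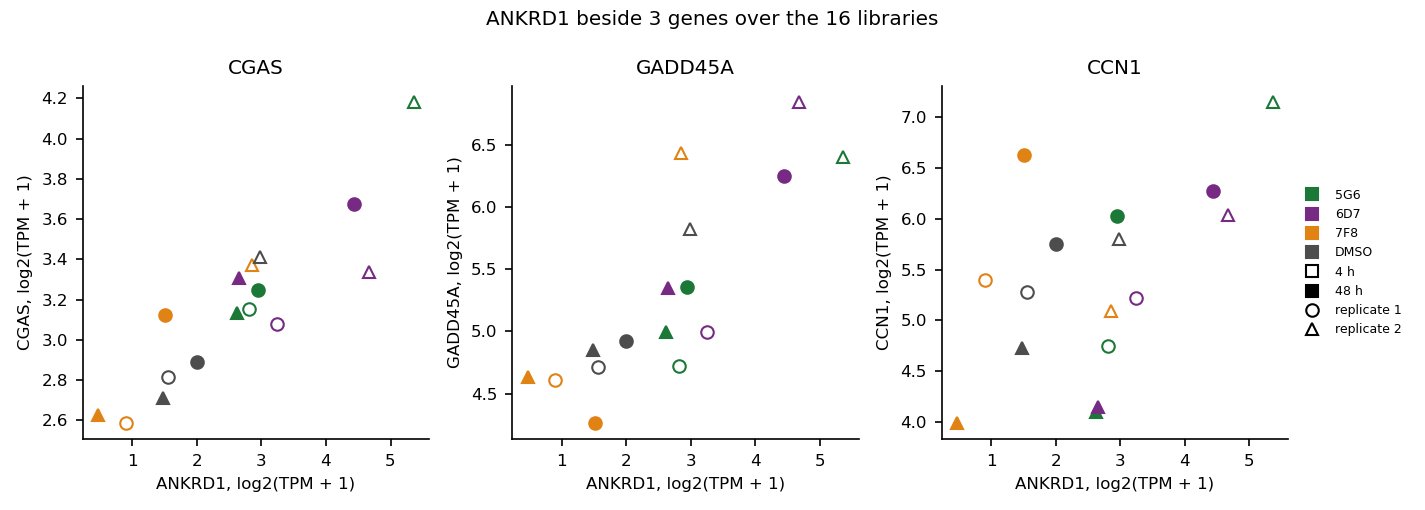
Each panel plots log2(TPM + 1) of 1 gene against that of ANKRD1 in the 16 libraries, coloured by treatment, with open points for 4 h, filled points for 48 h, circles for replicate 1 and triangles for replicate 2. CGAS and GADD45A follow ANKRD1 over the whole range (r = 0.90 and 0.83), and CCN1 does so less closely (r = 0.54).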

How the data were processed

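PolyA RNA of 16 A549 libraries in 8 groups was analysed, grouped by the labels. Per the labels' protocols a NEBNext Ultra kit was used, and strand was not stated. The submitters' processing notes list the build GRCh38 and the tools StringTie 2.0, STAR 2.6.1a and featureCounts 1.6.3, with no role for any of them. The authors deposited 1 gene abundance table per library with TPM, FPKM and coverage per gene, per the file headers. The deposited FPKM and TPM of a library differ by 1 factor. The deposited coverage, not scaled between libraries, gave the aligned gigabases together with FPKM. No read counts were used, so no counting intervals are given.

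TPM values of rows with the same gene name were added. Of 26182 genes 15285 passed the filter and were fitted as log2(TPM + 1) in limma 3.58.1 (R 4.3.3). The fit had 1 mean per group and a variance prior that followed mean level, worth 3.94 degrees of freedom at the median. BH adjustment ran within each of 16 comparisons. Other steps used numpy 2.4.6, pandas 2.3.3 and matplotlib 3.10.9 under Python 3.11.15. The procedure was tested on simulated data.

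The 8 genes and the 6 lists of 75 genes were chosen with earlier results of these data known, the lists from general knowledge. Genes named were the 8, a fixed set (CCN1, CCN2, TEAD2, TEAD3, TEAD4, VGLL4, LATS1, STK3, STK4, NF2, GAS6, ANKRD2 and ANKRD23), up to 3 called genes per list and comparison, and the 5 highest and 3 lowest by r with ANKRD1. GADD45A, NT5E, RASSF1 and the genes highest in 5G6 replicate 2 were chosen after their values were seen. Promoter windows are from RefSeq, GRCh38.p14. Alternatives were median-of-ratios scaling (size factors 0.820 to 1.38), FPKM, no filter, a pseudocount of 0.1, TPM without TRNC and TRNY, no trend, 1 hour alone, a replicate block, leaving out each library, and, added after seeing the data, a block within each hour.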

Additional observations from a re-analysis of the deposited data

How the results depend on the processing

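Of the log2 fold changes of the 7 tested genes against DMSO under the alternatives other than leaving out a library, 358 kept sign and side of the threshold, 15 turned sign, 3 gained a call and 2 lost it. The calls lost were those of WWTR1 with 7F8 at 48 h, with no filter (adjusted p = 0.0664) and with 1 hour alone (0.119). The number of the 7 genes called there was 0 under both settings. Listed genes called at 48 h were 1, 3 and 4 of 69 with 5G6, 6D7 and 7F8. With 6D7 they were 1 with FPKM, with median-of-ratios scaling and with 1 hour alone. With 5G6 they were 0 with no filter and with 1 hour alone and 2 without TRNC and TRNY, and with 7F8 2 with no filter and 0 with 1 hour alone. Signs turned with FPKM and median-of-ratios scaling for WWTR1 (-0.076 and -0.11) and AXL (-0.082 and -0.12) with 5G6 at 4 h and TEAD1 with 6D7 at 4 h (-0.0013 and -0.0017). With 6D7 at 48 h they turned with FPKM, median-of-ratios scaling and TPM without TRNC and TRNY for YAP1 (-0.28, -0.23 and -0.30), AMOTL2 (-0.26, -0.21 and -0.28) and AJUBA (-0.31, -0.26 and -0.33). For FPKM and median-of-ratios scaling the cause was not tested.

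The replicate block called 1 of the 7 genes in 6D7 against 7F8 cells at 48 h, and 2, 7 and 10 listed genes with 5G6, 6D7 and 7F8 at 48 h. Its calls over all genes are not given here, so no share can be set beside these counts. The block within each hour called 1, 1 and 2 of the 7 genes with 5G6, 6D7 and 7F8 against DMSO at 48 h, 1 between 5G6 and 7F8 and 2 between 6D7 and 7F8, and 5, 14 and 16 listed genes. WWTR1 was then called with all 3 compounds (adjusted p = 0.0176, 0.0190 and 0.000455) and TEAD1 with 7F8 (0.0487). Deviations of same-numbered libraries from their group means correlated at 0.383 to 0.630 between groups of the same hour and at 0.0576 to 0.358 between hours. The labels do not tie the number to a shared culture, so the pairing is a hint from the data. Over all genes the calls at 48 h were 517, 1899 and 1297 with 5G6, 6D7 and 7F8, and 2766, 5144 and 4162 with the block within each hour. They were 8, 403 and 169 with 1 hour alone. Between compounds at 48 h the block within each hour called 733 of 15285 genes for 5G6 against 7F8. It called 7170 for 6D7 against 7F8.

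Leaving out 1 library at a time, with the lone library taken to vary like the other groups, the calls were 0 of the 7 genes with 7F8 at 48 h. Listed genes called were 0 with 5G6, 0 to 4 with 6D7 and 0 to 1 with 7F8 at 48 h. The ANKRD1 difference with 5G6 at 4 h was 0.54 to 3.09. The log2 fold changes that took both signs were, with 5G6 at 4 h, YAP1 -0.22 to 0.64, WWTR1 -0.060 to 0.17, AMOTL2 -0.47 to 1.25, AJUBA -0.39 to 0.36 and AXL -0.66 to 0.75. With 6D7 at 4 h they were YAP1 -0.11 to 0.095, TEAD1 -0.29 to 0.40, AMOTL2 -0.081 to 0.36 and AXL -0.22 to 0.47. With 7F8 at 4 h they were AMOTL2 -0.15 to 0.30, LATS2 -0.23 to 0.26 and AXL -0.23 to 0.45. With 5G6 at 48 h they were YAP1 -0.70 to 0.12, AMOTL2 -0.73 to 0.29, LATS2 -0.15 to 0.16, AJUBA -0.67 to 0.34 and AXL -0.68 to 0.026. With 6D7 at 48 h they were YAP1 -0.27 to 0.47, AMOTL2 -0.12 to 0.35 and AJUBA -0.19 to 0.33. With 7F8 at 48 h they were YAP1 -0.63 to 0.11, AMOTL2 -0.23 to 0.73, AJUBA -0.77 to 0.17 and AXL -0.87 to 0.31.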

Other observations

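Other genes with a high Pearson's r with ANKRD1 over the 16 libraries were CHAC1, DDIT3, CEBPG and ATF3. These 4 were picked after their values were seen, so the figures are a description with no test and say nothing of a group or pathway. CHAC1, a glutathione-degrading enzyme, had r = 0.87 and rank 9 of 11139 genes. DDIT3, which encodes the stress factor CHOP, had r = 0.86 and rank 10. CEBPG had r = 0.86 and rank 11, and ATF3 had r = 0.84 and rank 13. Without the 2 libraries farthest from the median of ANKRD1, r was 0.79 for CHAC1, 0.87 for DDIT3, 0.82 for CEBPG and 0.73 for ATF3.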
